A study of Homo sapiens with 74 samples.

Results

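The promoters described here are those of the translation initiation factor genes, taken as all protein-coding genes of hg38 in GENCODE 44 whose symbol starts with EIF followed by a digit. This gave 56 genes of 20046 protein-coding genes. A gene was counted as bound by a zinc finger protein (ZFP) in a replicate where the Cut&Run peak list of that replicate held a peak whose nearest edge lay within 1 kb of any transcription start site (TSS) of the gene. EEF1A1, an elongation factor gene whose promoter is carried by the expression plasmid, was left out. A peak within 1 kb of its TSSs was found in all 72 lists, with a median fold enrichment of 2410.

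HEK293T, a human embryonic kidney line, was transfected with a plasmid encoding a V5-tagged ZFP, and after 48 h DNA near the tagged protein was released and sequenced by Cut&Run with the antibody to V5. By design all 36 ZFPs were therefore overexpressed from a plasmid, in cells that kept their own copy of the gene. For some libraries the peaks did not show the plasmid of the label, as given below. Each ZFP had 2 biological replicates, each from its own well, and 2 samples of un-transfected cells served as mock IP controls. These controls lacked both the plasmid and the transfection. Fold enrichment is the signal of a library at a peak summit over that of the mock IP of its batch, so ZFPs of a batch shared their control. The 72 lists held 92122 peaks in all, from 15 to 8702 per list with a median of 631, and 43019 of them lay within 1 kb of a protein-coding TSS.

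Each label was checked against the exons of the gene that its plasmid encodes, where reads of the transfected ORF give a peak. Such a peak was present in both replicates for 32 ZFPs, in 1 replicate for MBNL1 and TRIM55, and in neither for ZMAT5 and for the libraries labelled U2AF1. Of the 32, ZC3H3 replicate 2 had such a peak at a fold of only 3.99 in a list of 15 peaks, against 3030 in replicate 1 and at least 97.5 in every other list with one, and it held no peak at an initiation factor gene. The lists of ZMAT5 and U2AF1 held no peak at an initiation factor gene. TRIM55 replicate 2, which had no exon peak of its own gene, held peaks at EIF5 and EIF2B4, each with a fold of 2.0. With only the 32 ZFPs that had the peak in both replicates, the counts of initiation factor genes given below, 41 and 12, were the same.

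Initiation factors bring the small ribosomal subunit, the initiator tRNA and the mRNA together at the start codon. eIF2 carries the initiator tRNA and is recharged with GTP by eIF2B, kinases that phosphorylate eIF2-alpha lower initiation under stress, eIF3 is the large scaffold on the small subunit, and the eIF4 factors recognise the mRNA cap and unwind the leader. eIF1 and eIF1A guard the choice of start codon, eIF5 and eIF5B complete the joining of subunits, and eIF5A, modified with hypusine, assists the ribosome at difficult peptide bonds. Most of these genes are expressed in all cells from promoters rich in CpG.

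The sequences that carry the main peaks are shown first. They were read from hg38 at the positions of the peaks, in the direction of transcription of the gene, and letters in capitals match 1 of 8 motifs that were searched on both strands. Those that occur here are the NRF1 motif (GCGC, any base, then TGCGC), the GC box GGGGCGGGG, the CCAAT box CCAAT, the E-box CACGTG and the TATA box TATAAA, and the others are the ETS motif CCGGAAGT, the YY1 motif AAGATGGCG and the cAMP response element TGACGTCA. The GC box can lie within longer runs of G, and a CCAAT box can overlap the end of an NRF1 motif, as in EIF3K. For EIF5A, the gene with peaks in both replicates of the most ZFPs, the sequence is the whole peak of highest fold, that of GIN1 replicate 1 at chr17:7307438-7307644 on the plus strand. For EIF1, EIF3K, EIF2A and EIF2AK3 it is the stretch covered by the most lists, at chr17:41689041-41689226 (plus strand, 10 of 13 lists), chr19:38618943-38619103 (plus strand, all 5 lists), chr3:150546597-150546658 (plus strand, 5 of 6 lists) and chr2:88627733-88627799 (minus strand, 6 of 11 lists).
EIF5A: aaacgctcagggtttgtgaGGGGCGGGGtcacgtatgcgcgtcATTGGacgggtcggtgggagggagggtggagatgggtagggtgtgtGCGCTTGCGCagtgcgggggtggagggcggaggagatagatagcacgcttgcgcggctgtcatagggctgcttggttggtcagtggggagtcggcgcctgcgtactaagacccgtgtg
EIF1: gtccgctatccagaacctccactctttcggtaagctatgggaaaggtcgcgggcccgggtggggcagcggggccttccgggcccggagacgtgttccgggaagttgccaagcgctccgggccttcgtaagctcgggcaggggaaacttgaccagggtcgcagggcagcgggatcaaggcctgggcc
EIF3K: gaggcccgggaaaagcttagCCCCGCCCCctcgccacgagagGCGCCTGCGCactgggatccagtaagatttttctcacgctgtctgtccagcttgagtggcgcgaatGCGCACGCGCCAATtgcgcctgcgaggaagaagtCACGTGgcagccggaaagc
EIF2A: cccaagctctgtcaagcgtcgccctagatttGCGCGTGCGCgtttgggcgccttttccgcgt
EIF2AK3: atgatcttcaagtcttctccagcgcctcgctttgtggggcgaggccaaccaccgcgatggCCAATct

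A peak was found at 41 of the 56 initiation factor genes in at least 1 list, 73.2%, against 55.8% of all protein-coding genes. At 12 genes, 21.4%, both replicates of a ZFP had a peak, against 16.7% of all protein-coding genes, which is close to the background. Peaks of at least 2 ZFPs were found at 31 of the genes, peaks of at least 4 at 16 and peaks of at least 8 at 6. These were 55.4%, 28.6% and 10.7%, against 40.6%, 22.7% and 5.58% of all protein-coding genes. The median number of ZFPs per gene was 2 for initiation factors and 1 for all protein-coding genes. No test was made of these shares, since the genes are not replicates of a condition. Initiation factor genes had a median of 9 annotated TSSs against 5 for all protein-coding genes, and a gene with more TSSs offers more positions at which a peak is counted. With only the TSS of the canonical transcript, the shares with a peak in at least 1 list were 71.4% and 50.1%, and those in both replicates 17.9% and 14.1%.

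**Figure D1:**
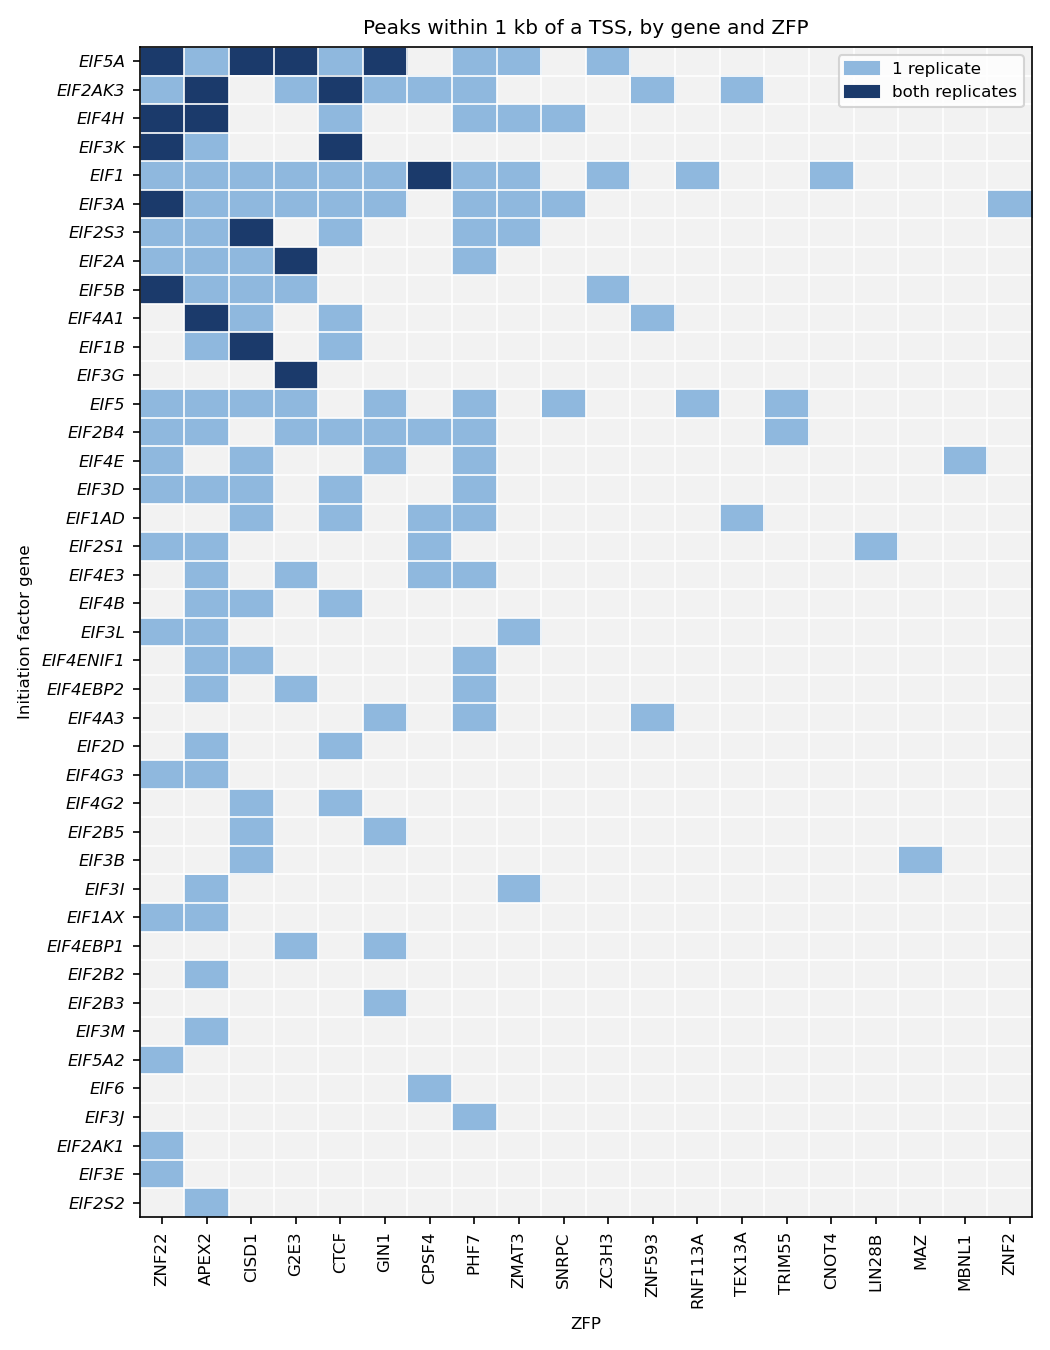
Peaks within 1 kb of a TSS at the 41 initiation factor genes (rows) for the 20 ZFPs with at least 1 such peak (columns), with light cells for a peak in 1 replicate and dark cells for a peak in both. The 18 dark cells lie in 7 columns, and 5 of them belong to ZNF22.

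Most of these peaks were seen in 1 replicate of a ZFP. Of 153 pairs of a gene and a ZFP, 18 had a peak in both replicates, 11.8%, against 16.5% of the 40581 pairs over all protein-coding genes. Replicate 1 lists held 118 of the 171 pairs of a gene and a list, 69.0%, and 68.0% of such pairs over all protein-coding genes. All 41 genes had a peak in a replicate 1 list, and 25 had one in a replicate 2 list. The peaks of both replicates overlapped in 13 of the 18 pairs, their summits lay a median of 142 bp apart, and the larger fold was a median of 1.19 times the smaller and at most 1.83 times.

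The peaks themselves were of ordinary height for promoters. Their fold enrichment ran from 2.0 to 11.7 with a median of 5.3, and that over all protein-coding genes had a median of 5.13. The median −log10 q, the significance given by the peak caller, was 3.41 against 3.12, and 17.5% of the peaks had an FDR over 0.01 against 18.6%. Within the promoter peaks of its own list, a peak at an initiation factor gene stood at a median percentile of 57.5 by fold. The peaks were a median of 280 bp wide, and 50.9% covered a TSS, against 282 bp and 50.3% over all protein-coding genes. The summit lay downstream of the nearest TSS in 35.7% of cases against 47.6%. Set against the canonical transcript of each gene, 108 summits were upstream of it, 39 in an intron and 24 in an exon. Of the 108, 38 lay within the gene as annotated over all transcripts, as at EIF5A and EIF2AK3, and 70 outside it.

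EIF5A had the most ZFPs with a peak in both replicates of all initiation factor genes. It encodes the hypusine-containing factor eIF5A and lies on the plus strand at chr17:7306999-7312463. Peaks were found in 13 lists of 9 ZFPs, with folds from 3.68 to 8.22 and a median of 5.45, and 4 ZFPs had a peak in both replicates. CISD1, an iron-sulfur protein of the mitochondrial outer membrane, gave folds of 6.75 and 7.0 in replicates 1 and 2, with summits 3 bp apart and at most 6 bp from a TSS. ZNF22 gave 5.34 and 4.51 with summits 6 bp apart, near a TSS further upstream. The ubiquitin ligase G2E3 gave 6.75 and 3.68 with summits 136 bp apart and an FDR above 0.01 in replicate 2, and GIN1 gave 8.22 and 5.45 in peaks that did not overlap, with summits 257 bp apart. The 4 peaks of CISD1 and ZNF22 covered a common stretch at chr17:7307480-7307502, and 9 of the 13 lists had a peak over it. The strongest peak, that of GIN1 replicate 1, had a −log10 q of 11.0 and its summit 15 bp upstream of a TSS. Of all protein-coding genes, 3.74% had peaks of as many ZFPs or more. The canonical TSS of EIF5A lies inside the gene, and the RefSeq promoter window around the gene's first base overlapped 1 of the 13 peaks.

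EIF1 had peaks of more ZFPs than any other initiation factor gene, but mainly in replicate 1. It encodes eIF1, which helps the scanning ribosome reject wrong start codons, and lies on the plus strand at chr17:41688885-41692668. Peaks were found in 13 lists of 12 ZFPs, with folds from 4.6 to 11.7 and a median of 6.95. Peaks of as many ZFPs or more were found at 0.863% of all protein-coding genes. Of these lists, 11 were of replicate 1 and 2 of replicate 2. ZNF22 replicate 1 gave the highest fold of any initiation factor peak, 11.7 with a −log10 q of 17.8, and APEX2 replicate 1 gave 10.5 with 13.7. ZNF22 replicate 2 and APEX2 replicate 2 held no peak there. CPSF4, a subunit of the mRNA cleavage and polyadenylation complex, was the ZFP with a peak in both replicates, with folds of 6.09 and 5.91. Its summits lay 263 bp apart, in intron 1 and in exon 1. The paper's summary of results gives no number of Cut&Run target genes for CPSF4. The summits of ZNF22, APEX2, CISD1, GIN1 and PHF7 fell in intron 1, those of CTCF, G2E3 and RNF113A 114 to 186 bp upstream of a TSS.

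**Figure D2:**
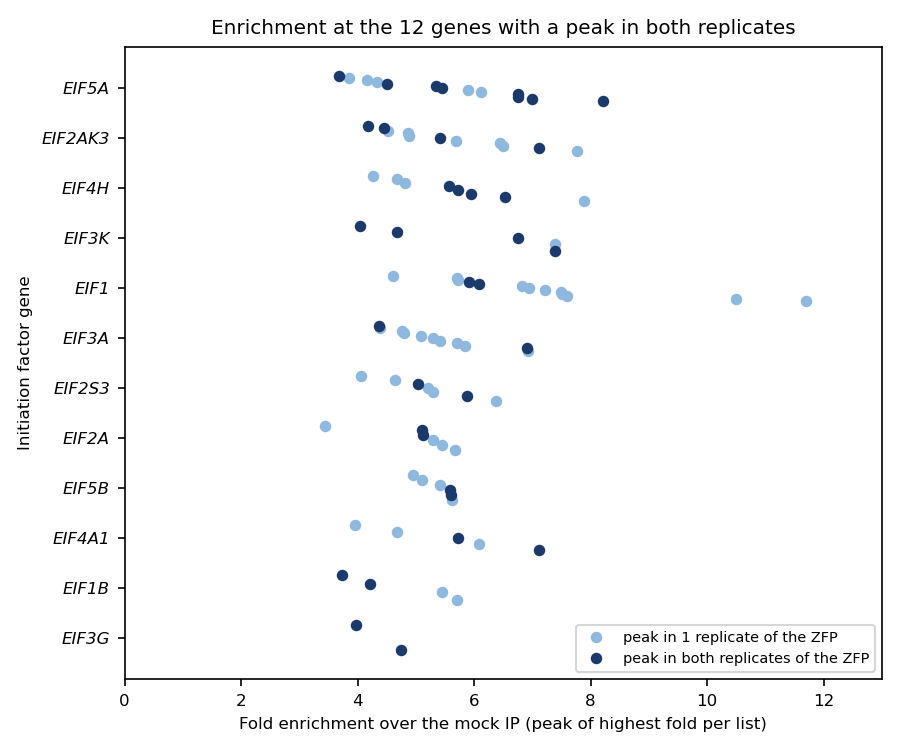
Fold enrichment over the mock IP (x axis) of the strongest peak per list at the 12 initiation factor genes with a peak in both replicates of a ZFP, with dark points for ZFPs with a peak in both replicates and light points for those with a peak in 1. The points range from 3.44 at EIF2A to 11.7 at EIF1, and dark and light points overlap at most genes.

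EIF1B, a close relative of EIF1, had peaks in 4 lists of 3 ZFPs. CISD1 gave 3.73 and 4.21 there, both with an FDR above 0.01, and summits 34 bp apart. EIF1AX, encoding eIF1A, had replicate 1 peaks of APEX2 and ZNF22 with folds of 5.25 and 5.22. EIF1AD, whose product carries the eIF1A domain, had peaks in 5 lists of 5 ZFPs with folds up to 6.04, and 4 of them also lay within 1 kb of another protein-coding gene. It starts head to head with BANF1. EIF1AY, on chromosome Y, had no peak. Whether these cells carry that chromosome was not checked, so its lack of a peak is not read as a lack of binding. Of the 5 genes of eIF1 and eIF1A, 4 thus had a peak and 2 had one in both replicates. For this and each role below, the shares of all protein-coding genes were 55.8% and 16.7%. Each role holds few genes, and none was tested against these shares.

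Among the 6 genes of eIF2 subunits and relatives, 5 had a peak and 2 had one in both replicates. EIF2S3, which encodes the gamma subunit that binds GTP and the initiator tRNA, had peaks in 7 lists of 6 ZFPs. CISD1 gave 5.88 and 5.04 there, with summits 355 bp apart and peaks that overlapped by 242 bp. EIF2S1, which encodes the alpha subunit that the stress kinases phosphorylate, had peaks in 4 lists of 4 ZFPs, the highest being ZNF22 replicate 1 at 8.56. It starts head to head with ATP6V1D at a distance of 63 bp, and all 4 peaks lay nearer a TSS of another gene. EIF2S2, the beta subunit gene, had 1 peak, that of APEX2 replicate 1 at 3.77. EIF2D, which encodes another tRNA-binding relative, had a replicate 1 peak of APEX2 at 5.09 and a replicate 2 peak of CTCF at 7.7. EIF2A, which encodes a separate initiator tRNA-binding protein, had peaks in 6 lists. G2E3 gave 5.1 and 5.13 there with summits 19 bp apart. EIF2A starts head to head with SERP1, and all 6 peaks also lay within 1 kb of another protein-coding gene.

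The 5 genes of eIF2B, the exchange factor of eIF2, included 4 with a peak and 0 with one in both replicates of a ZFP, beside 55.8% and 16.7% of all protein-coding genes, and 5 genes are too few to set against these shares. EIF2B4, the delta subunit gene, had peaks of 8 ZFPs, of which 5 were in replicate 1 and 3 in replicate 2, with folds from 2.0 to 5.71. It starts head to head with SNX17, and 7 of its peaks also lay within 1 kb of another gene. EIF2B5 had replicate 1 peaks of CISD1 and GIN1, EIF2B2 and EIF2B3 had 1 peak each, and EIF2B1 had none.

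Of the 4 genes of eIF2-alpha kinases, 2 had a peak and 1 had one in both replicates. EIF2AK3, which encodes PERK, the kinase of the endoplasmic reticulum stress response, had peaks in 11 lists of 9 ZFPs with folds from 4.18 to 7.77. CTCF, the insulator-binding protein, gave 4.46 and 7.12 with summits 31 bp apart, 386 and 355 bp upstream of the canonical TSS. APEX2 gave 5.42 and 4.18 in peaks that did not overlap, with summits 149 bp apart near the canonical TSS. In each of these pairs 1 replicate had an FDR above 0.01. The summits of GIN1, PHF7 and CPSF4 lay between 527 and 553 bp upstream of the canonical TSS. Since a longer transcript starts at chr2:88691518 on the minus strand, these positions lie inside the gene as annotated, and none of the 11 peaks lay within 1 kb of another protein-coding gene. EIF2AK1, the haem-regulated kinase gene, had 1 peak, that of ZNF22 replicate 1 at 3.97. EIF2AK2 and EIF2AK4, which encode PKR and GCN2, had none.

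Of the 14 eIF3 genes, 10 had a peak and 3 had one in both replicates. EIF3A, which encodes the largest scaffold subunit, had peaks in 11 lists of 10 ZFPs with folds from 4.36 to 6.92. ZNF22 gave 6.90 and 4.36 there, with summits in exon 1 and 37 bp apart, and the replicate 2 peak had an FDR above 0.01. EIF3K had peaks in 5 lists of 3 ZFPs, which all covered the stretch printed above. CTCF gave 4.68 and 6.75 at EIF3K, ZNF22 gave 7.39 and 4.04, and APEX2 replicate 2 gave 7.38. The replicate 2 peak of ZNF22 had an FDR above 0.01, which leaves CTCF alone in both replicates under that limit. At EIF3G, G2E3 gave 4.75 and 3.98, but the summits lay 4005 bp apart at different TSSs, in exon 9 and in intron 1, and the replicate 2 peak had an FDR above 0.01. EIF3D had peaks in 5 lists of 5 ZFPs with folds up to 6.93, none in both replicates. EIF3L had peaks in 3 lists with folds up to 6.0, EIF3B and EIF3I in 2 lists each, and EIF3E, EIF3J and EIF3M in 1 each, all in 1 replicate of a ZFP. EIF3C and EIF3CL, near-identical copies between which reads cannot be assigned with certainty, had no peak, nor had EIF3F and EIF3H.

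**Figure D3:**
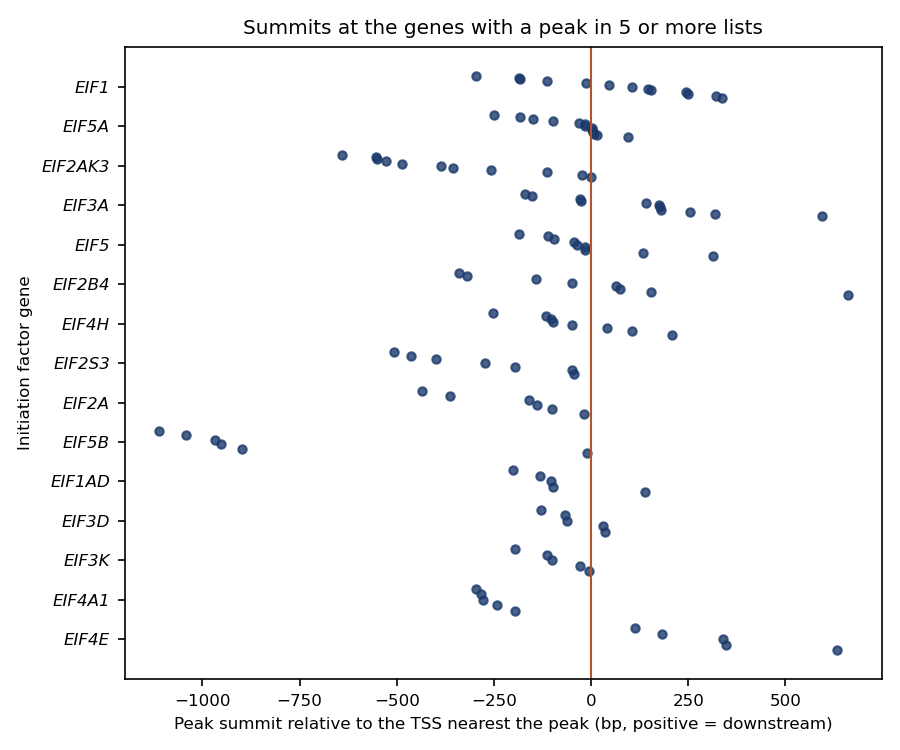
Distance of each peak summit from the TSS nearest the peak (x axis, bp, positive downstream) at the 15 initiation factor genes with a peak in at least 5 lists, with 1 point per list. The summits of EIF2AK3 reach 642 bp upstream, those of EIF4E lie downstream, and 5 of the 6 at EIF5B lie 898 to 1112 bp upstream.

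The eIF4 genes, of the cap-binding complex and its relatives, included 8 of 12 with a peak and 2 with a peak in both replicates. EIF4H, which encodes a stimulator of the eIF4A helicase, had peaks in 8 lists of 6 ZFPs with folds from 4.26 to 7.89. APEX2 gave 5.56 and 5.73 with summits 4 bp apart, and ZNF22 gave 5.95 and 6.53 with summits 295 bp apart. These 4 peaks kept an FDR under 0.001. EIF4E, the cap-binding protein gene, had peaks in 5 lists of 5 ZFPs with folds from 4.62 to 8.27, none in both replicates. EIF4G1, the main scaffold gene, had no peak at any of its 38 annotated TSSs, and its relatives EIF4G2 and EIF4G3 had peaks in 2 lists each. EIF4E3 had peaks in 4 lists, all of replicate 1, and EIF4B and EIF4A3 in 3 each, the highest fold among them being 7.75 for CTCF replicate 1 at EIF4B. EIF4E2 and EIF4E1B had no peak.

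The paralogous helicase genes EIF4A1 and EIF4A2 differed in their peaks. EIF4A1 had peaks in 5 lists of 4 ZFPs with folds from 3.96 to 7.11, and EIF4A2 had none in 72 lists. APEX2 gave 7.11 and 5.73 at EIF4A1, but the summits lay 4318 bp apart. The replicate 1 peak lay in intron 5 over the small nucleolar RNA gene SNORD10, and the replicate 2 peak lay 278 bp upstream of the TSS near those of CISD1, CTCF and ZNF593, each called in 1 replicate of its ZFP. With only canonical TSSs, EIF4A1 had no ZFP with a peak in both replicates. The promoters of both genes are shown to set the copy with peaks beside the copy with no called peak, from RefSeq (GRCh38.p14), 250 bases before to 50 after the start, at chr17:7572575-7572874 and chr3:186783327-186783626, both on the plus strand. EIF4A1 held CCAAT boxes and had a GC content of 62.7%, and EIF4A2 held a TATA box and had 52.3%.
EIF4A1: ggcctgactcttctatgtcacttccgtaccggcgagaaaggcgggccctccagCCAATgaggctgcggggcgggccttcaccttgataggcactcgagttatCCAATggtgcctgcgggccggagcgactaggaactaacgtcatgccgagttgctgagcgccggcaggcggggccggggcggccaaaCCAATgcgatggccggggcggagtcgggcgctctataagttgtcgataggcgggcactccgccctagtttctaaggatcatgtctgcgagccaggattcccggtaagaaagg
EIF4A2: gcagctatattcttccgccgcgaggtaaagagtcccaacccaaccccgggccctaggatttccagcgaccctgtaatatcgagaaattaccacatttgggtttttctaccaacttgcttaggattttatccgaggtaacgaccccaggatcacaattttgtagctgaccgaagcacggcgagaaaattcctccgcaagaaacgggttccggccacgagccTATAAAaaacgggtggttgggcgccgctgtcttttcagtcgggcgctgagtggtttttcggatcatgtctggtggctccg

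The genes of 4E-binding proteins, which hold the cap-binding protein away from its scaffold, had peaks at 3 of 4 and in both replicates at none. Over all protein-coding genes the shares were 55.8% and 16.7%, and 4 genes are too few to set against them. EIF4EBP2 had peaks in 3 lists with folds from 4.55 to 5.33 and summits 181 to 275 bp downstream of its TSS. EIF4EBP1 had peaks in 2 lists, EIF4ENIF1 in 3, and EIF4EBP3 had none. Of the 6 genes of eIF5, eIF5A, eIF5B and eIF6, 5 had a peak and 2 had one in both replicates. EIF5, which encodes the GTPase-activating protein of eIF2, had peaks of 9 ZFPs but in no case in both replicates, with 8.33 for CISD1 replicate 1 the highest fold. EIF5B had peaks in 6 lists with folds from 4.95 to 5.62. ZNF22 gave 5.61 and 5.59 there, but the summits lay 888 bp apart, and all peaks but that of replicate 1 lay nearer the TSS of another gene. TXNDC9 starts head to head with EIF5B. EIF6 and EIF5A2 had 1 peak each. EIF5AL1, a copy of EIF5A, had none, nor had EIF2S3B, a copy of EIF2S3.

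Across the 36 ZFPs the number of initiation factor genes with a peak and the number of all protein-coding genes with a peak had a Pearson r of 0.96 and a Spearman rho of 0.892, which describes 36 points whose axes share the same lists and controls. A peak at an initiation factor gene was found for 20 ZFPs and in 27 lists, and 4 ZFPs supplied 52.9% of the pairs. The 16 ZFPs without one had peaks at 1.21% of all protein-coding genes or fewer, and 0 of 56 allows a share of up to 6.38% by the exact 95% binomial interval.

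ZNF22 had peaks in both replicates at 5 genes, EIF3A, EIF3K, EIF4H, EIF5A and EIF5B, the most of any ZFP. This was 8.93%, against 4.8% of all protein-coding genes. In either replicate ZNF22 had a peak at 20 genes, 35.7% (exact 95% binomial interval 23.4 to 49.6), against 25.8%. Replicate 1 supplied 19 of them and replicate 2 supplied 6, or 33.9% against 24.0% and 10.7% against 6.66%. APEX2, an AP endonuclease with a C-terminal zinc finger, had peaks at the most genes in either replicate, 27 or 48.2% (34.7 to 62.0), against 27.0%. In both replicates it had 3, 5.36% against 8.33%. Its replicate 1 list held 20 genes, 35.7% against 18.9%, and its replicate 2 list 10, 17.9% against 16.4%. At an FDR under 0.001 APEX2 had 14 genes in either replicate and ZNF22 had 15, counts too close to rank these ZFPs. At this threshold PHF7 went from 17 to 10, G2E3 from 12 to 6, GIN1 from 11 to 6 and CPSF4 from 7 to 3. Shares of all protein-coding genes were not computed by ZFP at this threshold, so these counts have no background of their own. Over all ZFPs the share of all protein-coding genes with a peak went from 55.8% to 39.8%. CTCF had peaks at 15 genes, 26.8% (15.8 to 40.3) against 13.5%, with 8 in replicate 1, 14.3% (6.38 to 26.2) against 10.9%, and 9 in replicate 2, 16.1% (7.62 to 28.3) against 6.1%. EIF2AK3 and EIF3K alone had its peaks in both. In both replicates CTCF thus had 3.57% against 3.5%. CISD1 had 17 genes, 30.4% against 27.6%, and 3 in both replicates, 5.36% against 4.82%. Its replicate 1 list held 14, 25% against 25.4%, and its replicate 2 list 6, 10.7% against 7.05%. G2E3 had 12, 21.4% against 21.6%, and also 3 in both, 5.36% against 5.15%. Replicate 1 of G2E3 supplied 8, 14.3% against 12.0%, and replicate 2 supplied 7, 12.5% against 14.8%. GIN1 had 11, 19.6% against 13.9%, with 9 in replicate 1, 16.1% against 10.5%, and 3 in replicate 2, 5.36% against 5.71%. CPSF4 had 7, 12.5% against 8.11%. Each CPSF4 list held 4, 7.14%, against 6.37% in replicate 1 and 2.67% in replicate 2. GIN1 and CPSF4 each had 1 gene in both replicates, 1.79%, against 2.37% for GIN1 and 0.928% for CPSF4.

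PHF7 and ZMAT3 had peaks at initiation factor genes in replicate 1 only. The same held for SNRPC, ZC3H3, RNF113A, TEX13A, LIN28B and MAZ, with 3 genes or fewer each. PHF7 had 17 genes, 30.4% against 23.5%, all in replicate 1, where the share of all protein-coding genes was 22.9%. Replicate 2 held 0, against 1.71% of all protein-coding genes, which is close to the background. The replicate 2 list was shorter, with 729 peaks against 6284. ZMAT3, an RNA-binding protein induced by p53, had 7 genes, 12.5% against 5.3%, with 545 peaks in replicate 2 against 1228. All 7 were in replicate 1, 12.5% against 4.73%. Replicate 2 held 0, against 0.823% of all protein-coding genes, also close to the background. Whether the length of the replicate 2 lists accounts for their lack of peaks at initiation factor genes was not tested.

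**Figure D4:**
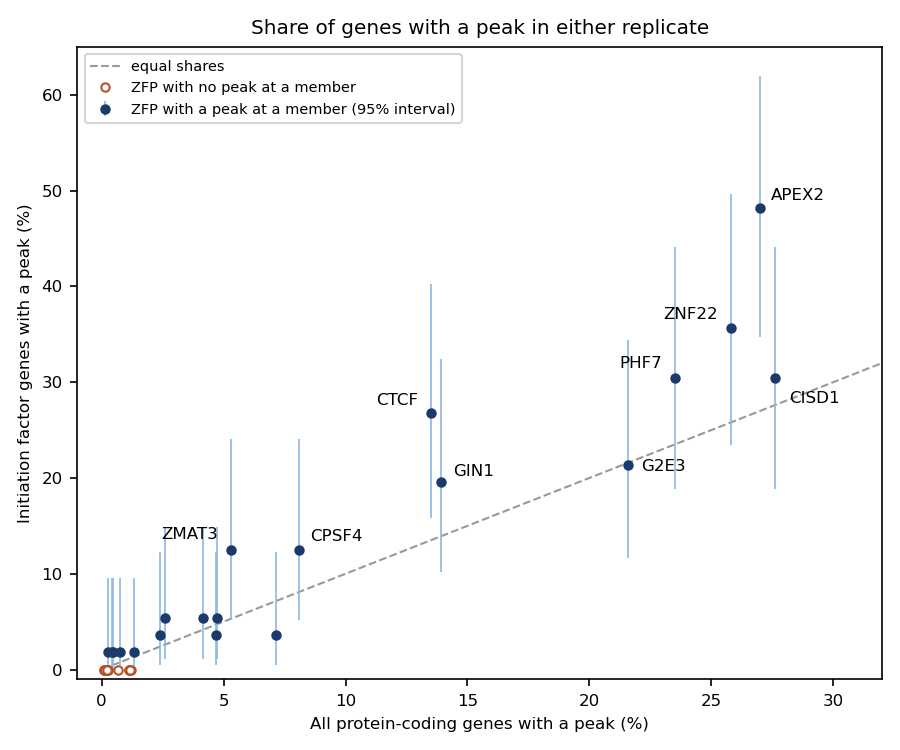
Share of the 56 initiation factor genes with a peak in either replicate (y axis, percent, with exact 95% binomial intervals that cover counting error only) against the share of all protein-coding genes (x axis, percent), 1 point per ZFP. The dashed line marks equal shares. The points of 17 ZFPs lie above the line, and G2E3 lies close to it. Only for APEX2 at 48.2% and CTCF at 26.8% does the whole interval lie above the line. In both replicates APEX2 had 5.36% against 8.33% and CTCF 3.57% against 3.5%.

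Genes of translation outside these symbols, listed by their roles in initiation, elongation, termination and the stress response, also carried peaks. Of 40 such genes, 33 had a peak, 82.5%, and 10 had one in both replicates, 25%. For these and each family below, the shares of all protein-coding genes were 55.8% and 16.7%. DHPS, the deoxyhypusine synthase that modifies eIF5A, had the most ZFPs with a peak in both replicates, APEX2, CISD1, GIN1, PHF7 and ZNF22. Its peaks were in 12 lists of 7 ZFPs. ZNF22 gave 11.1 and 4.77 at DHPS, PHF7 gave 6.92 and 4.25, and APEX2 gave 5.42 and 7.21, and all 12 summits lay within 56 bp of a TSS. CISD1, GIN1 and ZNF22 had peaks in both replicates at both EIF5A and DHPS. Of all protein-coding genes, 4.82%, 2.37% and 4.8% had peaks in both replicates of these ZFPs, and how often 2 genes share them was not tested. DOHH, the deoxyhypusine hydroxylase gene, had peaks in 3 lists of 3 ZFPs, in both replicates of none. PDCD4, an inhibitor of the eIF4A helicase, had peaks in the most lists and of the most ZFPs, 14 and 10. Of all protein-coding genes, 2.31% had peaks of as many ZFPs as PDCD4 or more. PDCD4 followed DHPS with 4 ZFPs with a peak in both replicates, APEX2, CISD1, CPSF4 and GIN1. The elongation factor gene EEF1D, the helicase gene DDX3X and ATF4, the transcription factor of the stress response, each had 2 such ZFPs. Of other families, 57 of 87 cytosolic ribosomal protein genes had a peak, 65.5%, with 17.2% in both replicates, and the mitochondrial ribosomal protein genes had 74.4% and 21.8%. The proteasome subunit genes had 70.0% and 12.5%. No family was tested against another.

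**Figure D5:**
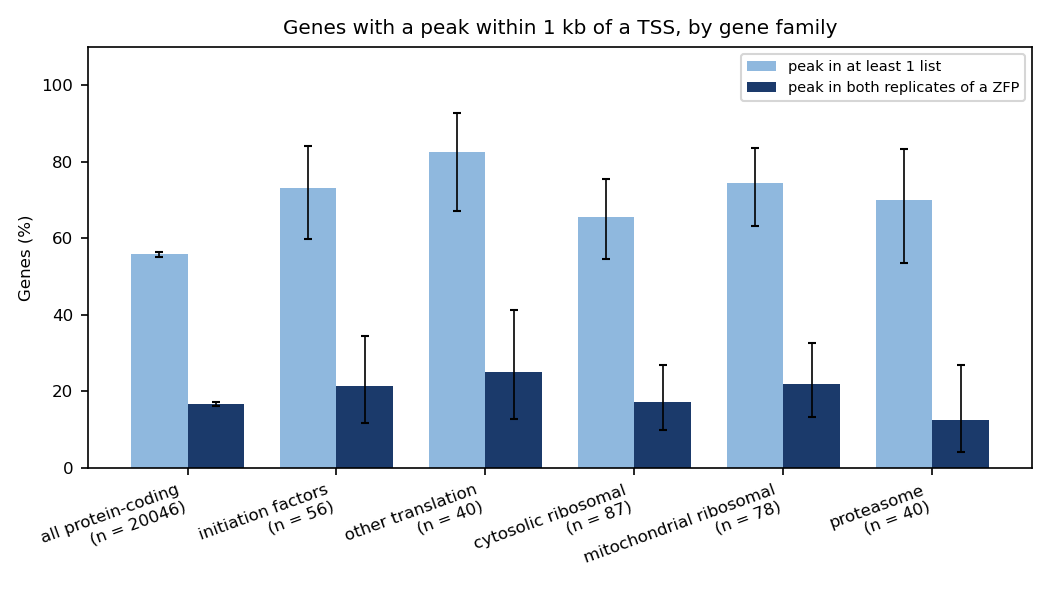
Percentage of genes with a peak within 1 kb of a TSS in at least 1 list (light bars) and in both replicates of a ZFP (dark bars), by gene family, with exact 95% binomial intervals. The initiation factor genes reach 73.2% and 21.4%, against 55.8% and 16.7% of all protein-coding genes.

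Several sequence motifs, which the choice of genes did not use, were found in a larger share of initiation factor promoters than of all promoters, with no test made. RefSeq promoters of 300 bases were matched for 47 of the 56 genes and compared with 15843 protein-coding promoters. The median GC content was 64.3% against 62.7%. The NRF1 motif, bound by a transcription factor of housekeeping and mitochondrial genes, occurred in 17.0% against 8.58%, the ETS motif in 17.0% against 6.19%, the E-box in 25.5% against 8.88% and the GC box in 31.9% against 22.4%. The CCAAT box occurred in 38.3% against 36.4% and the TATA box in 4.26% against 9.63%. The YY1 motif occurred in 2 promoters, also 4.26%, against 2.74%, and the cAMP response element in 0 of 47 against 2.59%. Among the initiation factor promoters alone, 34 with a peak and 13 without one, the CCAAT box occurred in 44.1% with a peak and 23.1% without, and in 6 of the 10 with a peak in both replicates. The ETS motif occurred in 17.6% and 15.4%, the GC box in 29.4% and 38.5% and the E-box in 23.5% and 30.8%. The TATA box occurred in none with a peak and in 2 without. A start of C followed by 4 pyrimidines, as in the terminal oligopyrimidine mRNAs of the translation apparatus, was found in 10 promoters, 21.3% against 4.6%.

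The NRF1 letters, chosen for a further look after these values had been seen, occurred in 8 initiation factor promoters, and all 8 belonged to the 34 matched genes with a peak. Of the 10 matched genes with a peak in both replicates, 5 held them. Protein-coding promoters were also split by peak, 8872 with one and 6416 with none, together fewer than the 15843 above. The letters occurred in 12.4% of those with a peak and in 3.27% of those with no peak. Of those with a peak in both replicates of a ZFP, 16.6% held them. Within 100 bp of the summit they occurred in 32 of 181 peaks at initiation factor genes, 17.7%, against 6.56% of all 43019 promoter peaks. The other motifs gave 2.76% against 2.5% for ETS, 12.7% against 15% for the GC box, 23.2% against 18.4% for the CCAAT box and 9.94% against 5.49% for the E-box. The TATA box gave 0.552% against 0.937%, and the YY1 motif and the cAMP response element occurred at none of the 181 summits against 1.42% and 0.851%. EIF5A supplied 9 of the 32, from 6 ZFPs, and the longest run of capitals in its printed sequence is such a match. EIF3A and EIF5B supplied 4 each, and EIF1, EIF2A and EIF3K 3 each. The peaks of 1 gene share the same sequence, so these peaks are not independent. By ZFP, ZNF22 had 6 such peaks of 26 and G2E3 had 6 of 16, against 7.64% and 7.25% of all their promoter peaks. PHF7 had none of 20 against 4.97%, CPSF4 none of 8 against 9.18% and ZMAT3 none of 7 against 9.44%. These counts are too small to set the ZFPs apart. A match is a description of the letters, and no binding by NRF1 was measured. The median GC content of the 201 bp around the summit was 66.2% at initiation factor genes and 69.2% at all protein-coding genes.

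A neighbour that starts head to head within 1 kb was found for 17 initiation factor genes, 30.4%, against 16.2% of all protein-coding genes. Of the 171 pairs of a gene and a list, 56 had a peak that also lay within 1 kb of another protein-coding gene, 32.7% against 31.5%. In 145 pairs the initiation factor gene had the nearest TSS. Peaks that also lie near another gene, as at EIF2A, EIF2B4, EIF2S1, EIF3K, EIF5 and EIF5B, cannot be assigned to 1 gene by position alone. These cases differ. EIF5 has no head-to-head neighbour and had the nearest TSS at every peak, and EIF2S1 had it at none.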

How the data were processed

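Cut&Run peaks of 36 V5-tagged ZFPs in HEK293T were used as deposited. For CPSF4, MBNL1, SNRPC, TRIM55, ZC3H3 and ZMAT5, the paper's summary of results gives no number of Cut&Run target genes. The authors trimmed reads with Trimmomatic 0.36, aligned them to hg38 with bowtie2 2.3.5.1, removed duplicates with Picard 0.1.8 and, library by library, ran MACS2 2.2.7.1 in narrow mode with the batch's mock IP as control and an FDR threshold of 0.05. The deposited values are the fold, a ratio of signal over the mock IP at the summit, the −log10 of the p-value and q-value, a score derived from the latter, and the summit offset. The 2 mock IP samples entered only as that control. Sources used here give neither batches nor read totals of single libraries, so the number of peaks per list stands in for depth. Labels gave each sample its ZFP and replicate.

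Overlaps with GENCODE 44 TSSs were computed with Python 3.11.15, pandas 2.3.3, numpy 2.4.6 and scipy 1.17.1, and the window search was tested on simulated data. Plots used matplotlib 3.10.9. The strongest peak stood for a gene in a list. Shares were set beside those of all protein-coding genes without a test, with exact 95% binomial intervals that cover counting error only. The members and lists of genes and motifs were chosen with earlier results of these data known. Named in the text were the 12 genes with the most ZFPs in both replicates, the 5 highest folds there, the genes with no peak, the member of each role in most lists, the 8 ZFPs with the most genes in both replicates (7 had any, so the last place was a tie at 0) and the 5 leading other translation genes, and further genes were named to account for each role. Alternatives changed the window, the TSSs, the FDR, the fold and the lists used.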

Additional observations from a re-analysis of the deposited data

How the results depend on the processing

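No paired analysis was possible because no result comes from a test, and replicates were compared by the presence of a peak in both. Of the 41 initiation factor genes with a peak, 36 were counted at an FDR under 0.01, 32 at an FDR under 0.001 and 38 at a fold of at least 4. These were 64.3%, 57.1% and 67.9% of the initiation factor genes, against 50.2%, 39.8% and 52.8% of all protein-coding genes. Of the 12 with a peak in both replicates of a ZFP, the counts were 8, 5 and 10, and 9 where both peaks had to overlap. At an FDR under 0.001, other translation genes with a peak in both replicates numbered 4 rather than 10, the median number of ZFPs per gene was 1 rather than 2, and all protein-coding genes had shares of 39.8% with a peak and 7.81% with a peak in both replicates. The last share was 13.4% at an FDR under 0.01, 15.2% at a fold of at least 4, 15.5% within 500 bp, 18.0% within 2 kb, 14.1% with canonical TSSs, 13.7% with overlapping peaks and 15.3% without CISD1, the ZFP with the most peaks. Leaving out 1 replicate of every ZFP gave 25 to 41 genes with a peak, a median of 0 to 1 ZFPs and a share of all protein-coding genes of 35.5% to 51.0%. In settings chosen after seeing the data, 38 genes had a peak without APEX2 and 38 without ZNF22. Without APEX2 the share was 67.9%, against 53.5% of all protein-coding genes, and the median was 1. All protein-coding genes had a share in both replicates of 13.8% without APEX2 and 15.5% without ZNF22. EIF1B, EIF2AK3, EIF3A and EIF3G had no ZFP with a peak in both replicates at an FDR under 0.01, where EIF3K had 1 rather than 2, nor had EIF2A, EIF2S3 and EIF3K at an FDR under 0.001. Short lists limit what can be seen, since a missing peak sets no level.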
